A study of Mus musculus with 11 samples.

Results

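The Nrf2 response to oxidative stress was followed through 10 genes in the pancreas and epididymal adipose tissue of mice with acute pancreatitis that combines obesity with alcohol (OA-AP): Nfe2l2, which encodes Nrf2, its inhibitor Keap1, and the targets Hmox1, Nqo1, Gclc, Gclm, Txnrd1, Srxn1, Slc7a11 and Gsr. They were taken by gene symbol from a list drawn up with earlier results of these data known. All 10 were found among the 54532 genes of the pancreas table, the 46078 genes of the adipose table and the 45260 genes common to both. Sequencing libraries were made from 5 pancreases, 2 of them controls, and from 6 adipose samples, 3 of them controls, the others being OA-AP. All mice were wild-type male C57BL/6 animals of 16 weeks, given as C57BL/6J in the study's methods. Control mice were kept on chow and received saline, whereas OA-AP mice ate high-fat food over the same 12 weeks and then received ethanol at 2 g/kg into the peritoneum as 2 injections 1 h apart. Diet and ethanol differed together, so their parts in any difference cannot be told apart. The labels do not say whether the pancreas and adipose sample of the same number came from 1 mouse, nor whether replicates were separate animals, and p-values measure the spread between these samples.

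Nrf2 is a transcription factor that the Keap1 and Cullin 3 ubiquitin ligase marks for degradation in unstressed cells. Oxidants and electrophiles modify cysteines of Keap1, Nrf2 accumulates, pairs with a small Maf protein and binds antioxidant response elements, where Bach1 competes for the same sites. Much of this control acts on the Nrf2 protein, which RNA counts do not measure. Its targets break down heme, reduce quinones, make and recycle glutathione and keep thioredoxin reduced, and pancreatic acinar cells under pancreatitis are a known site of oxidative stress.

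The antioxidant response element carries the core TGACNNNGC, which was searched on both strands of the RefSeq promoters of GRCm38.p6, each from 250 bases before to 50 bases after a transcription start. Entries were found for 7 of the 10 genes, all but Hmox1, Gclc and Gsr, and 4 of the 7 held the core, against 13.99% of the 27025 genes with an entry. None of the 4 matches overlapped an AP-1 motif (TGACTCA or TGAGTCA) or a CRE motif (TGACGTCA), which share its first letters. The matches are printed below 5′ to 3′ on the strand of the gene, with the 9 matched bases in capitals, because they show the sequence that names the gene group. The Nfe2l2 match lay 232 to 240 bases before the start and read TGACTCCGC on the strand of the gene (chr2:75704664-75704913, minus strand). The Gclm match lay 126 to 134 bases before the start and read TGACGGTGC on the opposite strand (chr3:122245307-122245556, plus strand). For Txnrd1 the match was in the second of 3 promoter entries, 84 to 92 bases before that start, and read TGACAAAGC on the opposite strand (chr10:82858956-82859178, plus strand). In Srxn1 the match lay 29 to 37 bases after the start and read TGACCTAGC on the opposite strand, so only 10 bases on either side are shown (chr2:152105542-152105570, plus strand).
Nfe2l2: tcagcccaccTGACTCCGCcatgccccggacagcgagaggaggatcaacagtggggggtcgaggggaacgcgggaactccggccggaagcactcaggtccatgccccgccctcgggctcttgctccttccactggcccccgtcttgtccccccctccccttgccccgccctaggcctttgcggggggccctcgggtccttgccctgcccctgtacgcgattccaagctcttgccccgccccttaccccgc
Gclm: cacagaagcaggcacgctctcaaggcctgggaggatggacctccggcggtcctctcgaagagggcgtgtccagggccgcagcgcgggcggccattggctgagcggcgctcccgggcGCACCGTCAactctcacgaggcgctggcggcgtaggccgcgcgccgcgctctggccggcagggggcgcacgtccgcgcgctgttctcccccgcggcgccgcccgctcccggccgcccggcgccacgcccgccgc
Txnrd1: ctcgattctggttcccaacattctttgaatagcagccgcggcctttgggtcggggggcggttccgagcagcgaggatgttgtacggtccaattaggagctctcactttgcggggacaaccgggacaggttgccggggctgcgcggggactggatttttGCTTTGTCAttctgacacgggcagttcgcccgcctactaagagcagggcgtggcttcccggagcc
Srxn1: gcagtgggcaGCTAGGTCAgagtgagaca
The windows of Keap1, Nqo1 and Slc7a11 did not hold these letters. Among other genes of the pathway, 4 of 12 regulators and 10 of 27 further targets with an entry held the core. A match is a description of the letters and not a measured binding site.

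Library totals, where M stands for a factor of 1e6, were 14.2 to 17.2 M counts in the pancreas and 20.8 to 27.9 M in adipose tissue. The 10 acinar markers summed to between 500698 and 585272 CPM (counts per 1e6 counts of the library) in control pancreas and between 214537 and 291255 CPM in OA-AP pancreas. The 6 adipocyte markers summed to between 25620 and 29430 CPM in adipose tissue and at most 70.3 CPM in the pancreas, so both tissue labels matched their defining genes. Adipose control 2 stood apart with 4678 CPM of acinar markers, where the other adipose libraries had 0.733 to 4.89 CPM. Pancreas OA-AP 3 also stood apart, since its 8 neutrophil markers summed to 90.9 CPM, against 12.2 and 3.03 CPM in the other OA-AP pancreases and 0.943 and 1.79 CPM in the controls. CPM here are scaled by TMM factors, which were 0.70 to 0.79 in control and 1.11 to 1.32 in OA-AP pancreas, so pancreatic changes depend on that scaling.

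In the pancreas, Nfe2l2 and 3 of its targets, Hmox1, Srxn1 and Gsr, were called upregulated in OA-AP. No gene of the group was called downregulated, although Slc7a11 was lower in every OA-AP sample than in both controls. A gene was called when edgeR's quasi-likelihood test gave an adjusted p under 0.05 over all 12884 genes tested and the fold was at least 1.5. This called 16.2% of all genes higher and 13.5% lower, beside 4 higher and 0 lower of the 10 genes here, of which 9 passed the filter on low counts. The median log2 fold change of those 9 was 0.91, against 0.04 over all genes tested. In bulk tissue a smaller share of one cell type and less RNA per cell cannot be told apart.

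**Figure D1:**
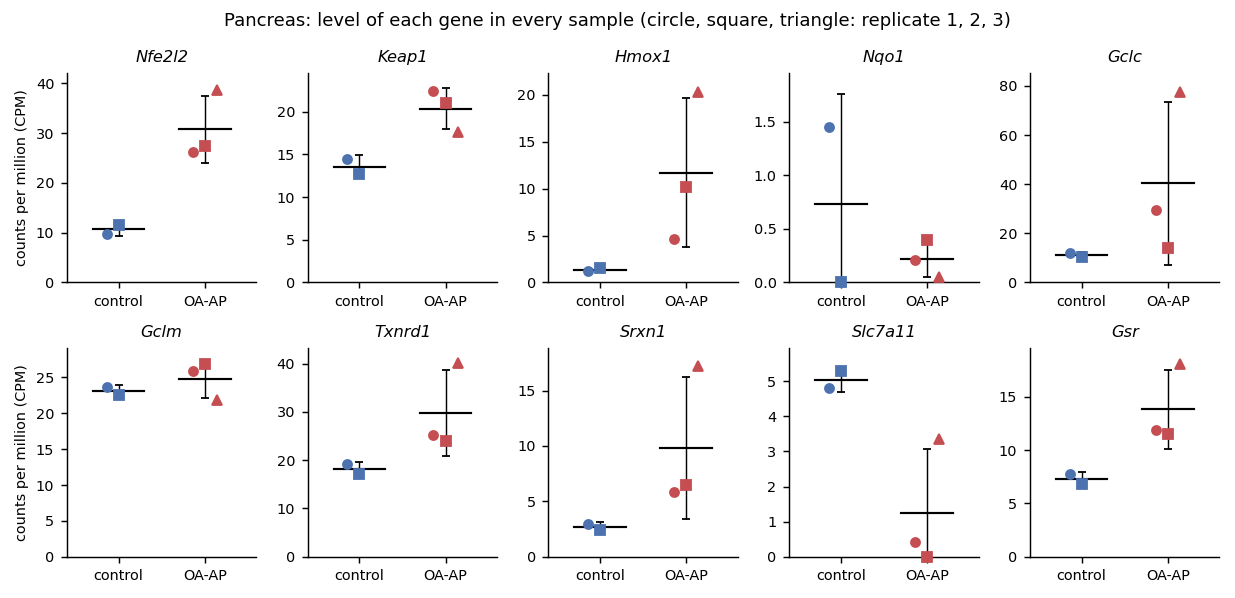
Level of each of the 10 genes in every pancreas sample in CPM (vertical axis, from 0), by group, with lines for the mean and bars for 1 SD over 2 control and 3 OA-AP samples. Nfe2l2 lay at 26.3 to 38.6 CPM in OA-AP against 9.77 and 11.7 CPM in the controls, and OA-AP replicate 3 (triangle) was the highest sample for Nfe2l2, Hmox1, Gclc, Txnrd1, Srxn1 and Gsr.

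Nfe2l2 (ENSMUSG00000015839, chr2:75675513-75704641, minus strand, GRCm38) was at 9.77 and 11.7 CPM in the control pancreases and at 26.3, 27.5 and 38.6 CPM in OA-AP. Every OA-AP sample was above both controls. This was a log2 fold change of 1.53 (SE 0.21, 2.88-fold), with an adjusted p of 0.00159 by edgeR's quasi-likelihood test. It was called with every alternative run. Without OA-AP replicate 3, the library rich in neutrophil markers, it was 1.28 (edgeR, adjusted p = 7.17e-06), and the part of those markers in the larger value was not tested.

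Keap1 (chr9:21229730-21239361, minus strand), whose product holds Nrf2 for degradation, was at 14.5 and 12.6 CPM in control pancreas and at 22.4, 21.0 and 17.7 CPM in OA-AP. The groups did not overlap, and OA-AP replicate 3 was the lowest of its group here. A log2 fold change of 0.58 (SE 0.17) had an adjusted p of 0.0283 by edgeR's quasi-likelihood test, but the fold of 1.499 was just under the threshold. Keap1 was called with library totals alone, without a filter on low counts and with 10 counts required in every sample. It was also called with the replicate block and without OA-AP replicate 3, but not by DESeq2. Gm16754, an antisense gene, shares 510 exonic bases with Keap1, and without a stated strand setting their reads cannot be told apart. The ratio of Nfe2l2 to Keap1 per kilobase within a library, which no scaling factor touches, was 0.834 and 1.14 in the controls and 1.45, 1.62 and 2.7 in OA-AP. All 3 OA-AP ratios were above both control ratios.

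Hmox1 (chr8:75093621-75100589, plus strand), heme oxygenase 1, which opens the heme ring and releases iron, biliverdin and carbon monoxide, was at 1.2 and 1.49 CPM in control pancreas and at 4.61, 10.2 and 20.3 CPM in OA-AP. The OA-AP samples were all higher but spread widely, with replicate 3 on top. These levels rested on 14 and 15 counts in the controls and on 88, 178 and 388 counts in OA-AP. Hmox1 had a log2 fold change of 3.12 (SE 0.76, adjusted p = 0.0250 by edgeR's quasi-likelihood test), and 2.41 without OA-AP replicate 3 (edgeR, adjusted p = 0.000786). Hmox2, the constitutive isoenzyme, had a log2 fold change of 0.08 (95% interval -0.45 to 0.60). The ratio of Hmox1 to Hmox2 per kilobase was 0.257 and 0.204 in the controls and 0.696, 1.66 and 3.32 in OA-AP.

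Srxn1 (chr2:152105516-152111376, plus strand) encodes sulfiredoxin, which restores over-oxidized peroxiredoxins, and was at 3.0 and 2.39 CPM in control pancreas and at 5.82, 6.46 and 17.2 CPM in OA-AP. Here too all OA-AP samples were higher and replicate 3 was far above the others. The log2 fold change was 1.86 (SE 0.57, adjusted p = 0.0485 by edgeR's quasi-likelihood test), and 1.13 without that library (edgeR, adjusted p = 0.00310). Gsr (chr8:33652523-33698163, plus strand), glutathione reductase, was at 7.80 and 6.87 CPM in the controls and at 11.9, 11.5 and 18.1 CPM in OA-AP. Its groups did not overlap either. The log2 fold change of Gsr was 0.91 (SE 0.25, adjusted p = 0.0233 by edgeR's quasi-likelihood test), and 0.62 without OA-AP replicate 3 (edgeR, adjusted p = 0.0127).

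The enzymes of glutathione synthesis gave no call in the pancreas. Gclc (chr9:77754535-77794485, plus strand), the catalytic subunit of glutamate-cysteine ligase, was at 12.2 and 10.6 CPM in the controls and at 29.6, 14 and 77.6 CPM in OA-AP. The OA-AP samples were above the controls but differed widely among themselves, and the log2 fold change of 1.83 (SE 0.82) had an adjusted p of 0.155 by edgeR's quasi-likelihood test. Without OA-AP replicate 2, the lowest of the 3, Gclc was called at 2.23 (edgeR, adjusted p = 0.0297), and without replicate 3, the highest, it was at 0.89 (edgeR, adjusted p = 0.160). Gclm (chr3:122245557-122270732, plus strand), the modifier subunit, was at 23.7 and 22.5 CPM in the controls and at 25.8, 26.9 and 21.8 CPM in OA-AP. Its groups overlapped, and the log2 fold change was 0.10 (95% interval -0.24 to 0.44; edgeR, adjusted p = 0.620). The ratio of Gclc to Gclm per kilobase was 0.856 and 0.783 in the controls and 1.91, 0.871 and 5.94 in OA-AP. Gclm shares 296 and 244 exonic bases with a transcript on the other strand and a pseudogene on its own, so a part of its counts is uncertain.

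Txnrd1 (chr10:82833951-82897712, plus strand), cytosolic thioredoxin reductase, was at 19.3 and 17.2 CPM in control pancreas and at 25.3, 24.0 and 40.1 CPM in OA-AP. The groups did not overlap, and the log2 fold change of 0.71 (SE 0.24) missed the threshold with an adjusted p of 0.0566 by edgeR's quasi-likelihood test. It was called without OA-AP replicate 2, at 0.84 (edgeR, adjusted p = 0.0264), and without replicate 3 it was at 0.38 (edgeR, adjusted p = 0.0323), under the fold threshold. With all libraries kept, Txnrd1 was called without a filter on low counts and with 10 counts required in every sample. Library totals alone also called it, but DESeq2 did not. The ratio to Txnrd2, the mitochondrial enzyme, was 2.03 and 1.71 per kilobase in the controls and 3.61, 2.51 and 3.85 in OA-AP.

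Slc7a11 (chr3:49892526-50443614, minus strand), the cystine transporter of system xc-, went the other way in the pancreas. It was at 4.80 and 5.28 CPM in the controls, from 56 and 53 counts, and at 0.419, 0 and 3.34 CPM in OA-AP, from 8, 0 and 64 counts. All OA-AP samples were lower, and replicate 3 was nearest to the controls. A count of 0 in OA-AP replicate 2 allows up to 0.171 CPM, the level of 3 counts there, counting error only. The log2 fold change was -1.98 (SE 1.24, adjusted p = 0.270 by edgeR's quasi-likelihood test). Without OA-AP replicate 3 the value was -4.53 (edgeR, adjusted p = 6.32e-05), so that library decided whether the gene was called. Nqo1 (chr8:107388225-107403206, minus strand), the quinone reductase, had 17 and 0 counts in the controls and 4, 7 and 1 counts in OA-AP. It was too low to be tested and its samples overlapped.

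Across the group, 7 of the 10 genes had every OA-AP pancreas above both controls, as did 33.0% of all genes tested, and Slc7a11 had every OA-AP sample below, as did 29.3% of all genes tested. With only 2 controls, each mattered. Without control 1 or without control 2, Nfe2l2 was the only gene of the group called (log2 fold changes of 1.41 and 1.66; edgeR, adjusted p = 0.0328 and 0.0251), and Hmox1, Srxn1 and Gsr kept their direction with adjusted p from 0.108 to 0.227 (edgeR). Scaling by library totals alone moved the median of all genes from 0.04 to 0.75 on the log2 scale, and split all calls into 92.0% higher where TMM gave 54.5%. It called 7 of the 10 genes higher, with Keap1, Gclm and Txnrd1 added, beside 5839 of all 12884 genes tested. Gclm was then at 0.82, close to the median of all genes, while Nfe2l2 at 2.22 and Hmox1 at 3.78 were well above it.

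In adipose tissue, 5 targets were upregulated in OA-AP, namely Hmox1, Txnrd1, Srxn1, Slc7a11 and Gsr, while Nfe2l2 and Gclm showed differences under the fold threshold. Over all 15839 genes tested, edgeR's quasi-likelihood test called 12.4% higher and 12.7% lower. All 10 genes here passed the filter, 5 were called higher and 0 lower, and their median log2 fold change was 0.91 against -0.00 over all genes tested. These 5 genes were called with every alternative run, adipose control 2 left out included.

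**Figure D2:**
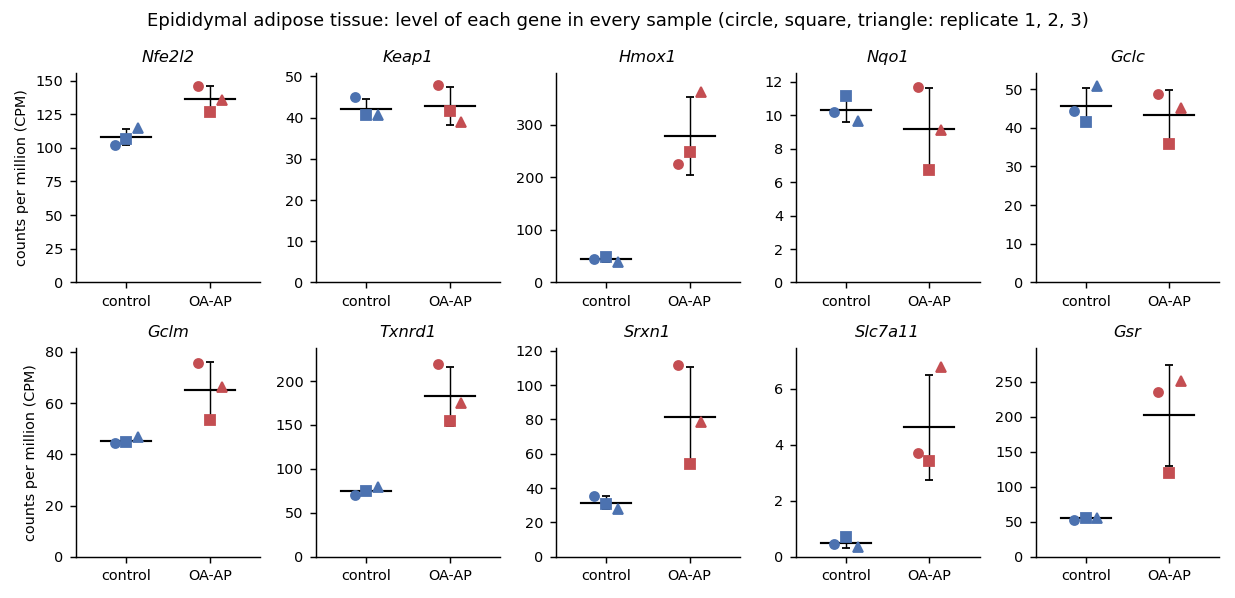
Level of each of the 10 genes in every adipose sample in CPM (vertical axis, from 0), by group, with lines for the mean and bars for 1 SD over 3 control and 3 OA-AP samples. Hmox1 lay at 225 to 363 CPM in OA-AP against 38.0 to 49.0 CPM in the controls, whereas the groups overlapped for Keap1, Nqo1 and Gclc.

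Nfe2l2 was at 102, 107 and 115 CPM in control adipose tissue and at 146, 127 and 135 CPM in OA-AP. The groups did not overlap, but the log2 fold change was only 0.33 (SE 0.09, 1.26-fold), with an adjusted p of 0.0300 by edgeR's quasi-likelihood test. Keap1 was at 44.9, 40.5 and 40.7 CPM in the controls and at 47.9, 41.7 and 38.9 CPM in OA-AP. Its samples overlapped, and the log2 fold change of 0.03 had a 95% interval from -0.21 to 0.27 (edgeR, adjusted p = 0.864). The ratio of Nfe2l2 to Keap1 per kilobase was 2.82, 3.26 and 3.48 in the controls and 3.77, 3.76 and 4.31 in OA-AP, with no overlap.

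Hmox1 was at 44.8, 49.0 and 38.0 CPM in control adipose tissue and at 225, 247 and 363 CPM in OA-AP. All OA-AP samples were several times higher than any control. The log2 fold change was 2.66 (SE 0.21, 6.34-fold), with an adjusted p of 0.000446 by edgeR's quasi-likelihood test. Hmox2 had a log2 fold change of -0.08 (95% interval -0.36 to 0.20), and the ratio of Hmox1 to Hmox2 per kilobase went from 1.47, 1.73 and 1.29 in the controls to 8.67, 7.56 and 14.7 in OA-AP. Macrophages are rich in heme oxygenase 1. Their 10 markers summed to between 1004 and 1271 CPM in control and between 1077 and 1649 CPM in OA-AP adipose tissue, and 3 of the 10 were called higher (Cd68, Mrc1 and Cd163) and 1 lower (Csf1r). The 8 neutrophil markers summed to between 9.38 and 15.1 CPM in the controls and between 136 and 164 CPM in OA-AP, with 4 called higher and 1 lower, and Ly6g, Mpo and Camp under 1 CPM in every library. Erythroid markers summed to between 402 and 557 CPM in the controls and between 540 and 1005 CPM in OA-AP, with 2 of 5 called higher (Hba-a1 and Hbb-bs), and the sums of the groups overlapped. Fibroblast markers had 4 of 6 called lower, and lymphocyte markers had 4 called lower of the 4 tested. The part of all these cells in the results for adipose tissue was not tested.

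Txnrd1 was at 70.3, 74.5 and 79.8 CPM in control adipose tissue and at 219, 154 and 175 CPM in OA-AP. The groups were well apart, and the log2 fold change was 1.29 (SE 0.14, adjusted p = 0.00124 by edgeR's quasi-likelihood test). Srxn1 was at 35.4, 30.9 and 28.0 CPM in the controls and at 112, 54.1 and 78.2 CPM in OA-AP. Again every OA-AP sample was higher, with a log2 fold change of 1.37 (SE 0.26, adjusted p = 0.00772 by edgeR's quasi-likelihood test). The ratio of Txnrd1 to Txnrd2 per kilobase was 2.22, 2.77 and 2.69 in the controls and 9.71, 5.50 and 7.54 in OA-AP.

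Gsr was at 52.4, 56.0 and 55.8 CPM in control adipose tissue and at 235, 120 and 251 CPM in OA-AP. OA-AP replicate 2 was the lowest of its group, as it was for Srxn1, Txnrd1 and Gclm, yet above every control. Its log2 fold change was 1.88 (SE 0.27, adjusted p = 0.00308 by edgeR's quasi-likelihood test). Slc7a11 was close to the lower limit at 0.440, 0.713 and 0.339 CPM in the controls, from 12, 17 and 10 counts, and at 3.70, 3.41 and 6.80 CPM in OA-AP, from 72, 70 and 135 counts. Its groups did not overlap, and its log2 fold change of 3.23 (SE 0.40, adjusted p = 0.00176 by edgeR's quasi-likelihood test) was the largest of the 10 in this tissue.

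Gclm was at 44.4, 44.7 and 46.7 CPM in control adipose tissue and at 75.6, 53.5 and 66.3 CPM in OA-AP. All OA-AP samples were higher, but the log2 fold change of 0.52 (SE 0.13, adjusted p = 0.0186 by edgeR's quasi-likelihood test) was under the fold threshold. It was called without OA-AP replicate 2, at 0.65. Gclc was at 44.5, 41.4 and 50.8 CPM in the controls and at 48.7, 35.9 and 45.1 CPM in OA-AP. Its samples overlapped (log2 fold change -0.08, 95% interval -0.39 to 0.24; edgeR, adjusted p = 0.687). The ratio of Gclc to Gclm per kilobase was 1.67, 1.55 and 1.82 in the controls and 1.08, 1.12 and 1.14 in OA-AP. All OA-AP ratios were lower. Nqo1 was at 10.2, 11.2 and 9.68 CPM in the controls and at 11.7, 6.73 and 9.12 CPM in OA-AP, and its samples overlapped too (log2 fold change -0.17, 95% interval -0.65 to 0.31; edgeR, adjusted p = 0.537).

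In all, 7 of the 10 genes had every OA-AP adipose sample above every control, as did 27.5% of all genes tested in this tissue. Library totals alone moved the median of all adipose genes from -0.00 to -0.16 and the share of calls that were higher from 49.4% to 32.8%, and the 5 calls stood.

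**Figure D3:**
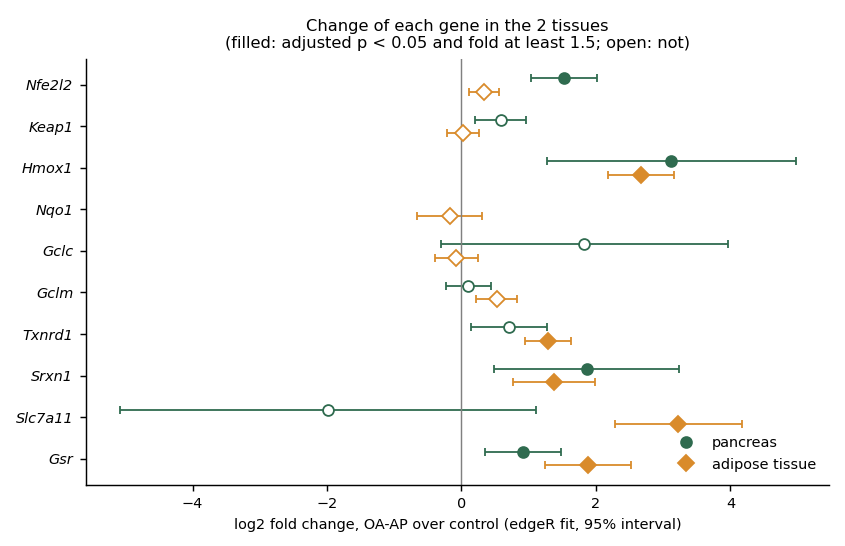
Log2 fold change of each gene, OA-AP over control, from the edgeR fit of each tissue (horizontal axis), with 95% intervals; circles are pancreas (2 against 3 samples) and diamonds adipose tissue (3 against 3), and filled symbols passed both thresholds. Hmox1 at 3.12 and 2.66 and Srxn1 at 1.86 and 1.37 were filled in both tissues, and Slc7a11 lay at -1.98 in the pancreas and 3.23 in adipose tissue.

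Whether a change differed between the tissues was tested with a tissue by condition term over all 11 libraries. This term was called for 21.3% of the 17046 genes tested and for 2 of the 10 genes here. Nfe2l2 changed more in the pancreas, by 1.22 on the log2 scale (SE 0.23, adjusted p = 0.00303 by edgeR's quasi-likelihood test), and this held with every alternative run. Slc7a11 differed by -5.18 (SE 1.32, adjusted p = 0.0195 by edgeR's quasi-likelihood test), being lower in OA-AP pancreas and higher in OA-AP adipose tissue. Without either pancreas control or adipose control 3 the term for Slc7a11 had adjusted p from 0.0512 to 0.0616 (edgeR), with values from -5.24 to -4.91. For Hmox1 the difference of 0.48 had a 95% interval from -1.31 to 2.28 (edgeR, adjusted p = 0.736), and for Srxn1 that of 0.51 had one from -0.97 to 2.00 (edgeR, adjusted p = 0.651). Those intervals are wide, so the changes were not shown to differ or to be alike. Keap1 (0.58, adjusted p = 0.0511 by edgeR's quasi-likelihood test) and Gclc (1.93, adjusted p = 0.0996) were not called. With all 11 libraries kept, both were called by DESeq2, with library totals alone and with 10 counts required in every sample. Gsr at -0.95, Txnrd1 at -0.56, Gclm at -0.40 and Nqo1 at -1.62 were not called either (edgeR, adjusted p from 0.127 to 0.327). Single libraries decided some of these, since Keap1 and Txnrd1 were called without pancreas OA-AP 3, Gclc without pancreas OA-AP 2, Nqo1 without pancreas control 2, Keap1 without adipose OA-AP 1 and Gsr without adipose OA-AP 2, with adjusted p from 0.00814 to 0.0428 (edgeR).

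The control tissues were also compared on the common scale of the 11 libraries. In control adipose tissue 4 of the 10 genes were called higher, beside 29.4% of all genes. In control pancreas 2 of the 10 were called higher, beside 26.0% of all genes, so such calls were common among all genes too. Nfe2l2 was 2.58-fold higher in adipose tissue, Hmox1 8.38-fold, Srxn1 2.97-fold and Gsr 1.90-fold. Gclm was 2.00-fold and Slc7a11 39.4-fold higher in the pancreas. Srxn1 and Gsr were not called without either pancreas control (edgeR, adjusted p from 0.0772 to 0.142), and Nqo1 was called higher in adipose tissue without pancreas control 1, pancreas OA-AP 3 or adipose OA-AP 2 (edgeR, adjusted p from 0.00108 to 0.0428). The scale between tissues matters here, because library totals alone put the median of all genes at -2.67 on the log2 scale, pancreas over adipose, where the fit with TMM had -0.22. With it Keap1 and Gclm turned to lower in the pancreas, at -2.13 and -1.47, both above that median, and Slc7a11 remained higher at 2.84.

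For Nfe2l2 the 4 groups stood, from low to high, at 22.4 ± 2.49 CPM in control pancreas (SD, n = 2), 57.8 ± 3.16 in control adipose tissue (n = 3), 65.6 ± 14.8 in OA-AP pancreas (n = 3) and 73.0 ± 4.97 in OA-AP adipose tissue (n = 3), all on the common scale. On this scale the SD of OA-AP pancreas reached the means of both neighbours in that order, and no test of these pairs was run. The order depends on the scaling between tissues. Over the alternatives run, the log2 difference of Nfe2l2 between control tissues, pancreas over adipose, went from -3.84 to -1.28. Compared per kilobase within a tissue, Gclm had the highest mean level of the 10 genes in control pancreas at 3.68 CPM per kilobase, and Nfe2l2 in control adipose tissue at 28.4. In OA-AP the highest were Gclc at 10.7 in the pancreas, carried by replicate 3, and Hmox1 at 159 in adipose tissue. Slc7a11 was the lowest of the 10 in all 4 groups.

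**Figure D4:**
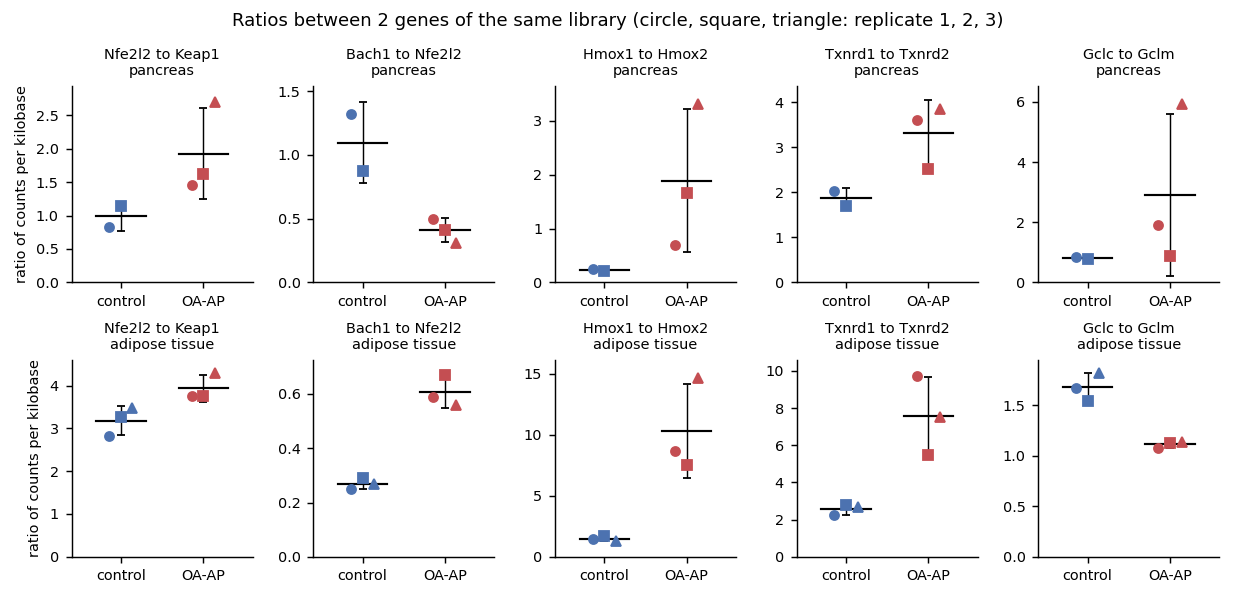
Ratio of counts per kilobase between 2 genes of the same library (vertical axis, from 0), by group, with lines for the mean and bars for 1 SD, pancreas above (2 control and 3 OA-AP samples) and adipose tissue below (3 and 3). The ratio of Bach1 to Nfe2l2 was 0.872 and 1.32 in control and 0.313 to 0.500 in OA-AP pancreas, but 0.250 to 0.290 in control and 0.560 to 0.670 in OA-AP adipose tissue.

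Among the regulators of Nrf2, Maff was called higher in both tissues, Mafg, Bach2, Sqstm1 and Nfe2l1 in the pancreas, and Mafk and Bach1 in adipose tissue. Of a list of 13 regulators, all tested, 5 were called higher and 0 lower in the pancreas, and 3 higher and 0 lower in adipose tissue, beside the shares of all genes given above. The tissue by condition term was called for 5 of the 13, beside 21.3% of all genes, 4 with the larger change in the pancreas and 1 in adipose tissue. Their median log2 fold change was 0.46 in the pancreas and 0.09 in adipose tissue. Maff, a small Maf protein that pairs with Nrf2, was called higher in both, at 1.93 in the pancreas and 2.25 in adipose tissue (edgeR, adjusted p = 0.00191 and 0.000184). Mafg was higher in the pancreas at 1.11 (edgeR, adjusted p = 0.00329) and at -0.01 in adipose tissue, and its tissue by condition difference was 1.14 (edgeR, adjusted p = 0.00181). Mafk was higher in adipose tissue at 1.15 (edgeR, adjusted p = 0.000666). In the pancreas Mafk was at 0.75 without overlap of the groups and was not called (edgeR, adjusted p = 0.0760). Its tissue by condition difference of -0.38 was not called either (edgeR, adjusted p = 0.426).

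Bach1, the repressor that heme releases from these sites, was at 21.0 and 16.5 CPM in control and at 21.4, 18.5 and 19.6 CPM in OA-AP pancreas. Those samples overlapped, with a log2 fold change of 0.08 (95% interval -0.29 to 0.45). In adipose tissue it was at 41.6, 50.5 and 50.2 CPM in the controls and at 140, 138 and 123 CPM in OA-AP, a log2 fold change of 1.49 (SE 0.11, adjusted p = 0.000372 by edgeR's quasi-likelihood test). The difference between tissues was -1.40 (edgeR, adjusted p = 0.000481). The ratio of Bach1 to Nfe2l2 therefore moved in opposite directions, without overlap between control and OA-AP in either tissue. Bach2, a relative of Bach1 known from lymphocytes, was higher in the pancreas at 3.60 (edgeR, adjusted p = 0.000289), from 0.771 and 0.697 CPM to 8.44, 7.37 and 11.2 CPM. The 5 lymphocyte markers summed to at most 1.03 CPM in any pancreas sample, and none passed the filter on low counts there. The part of any cell type in the Bach2 values was not tested.

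Sqstm1, the autophagy receptor p62 that binds Keap1, was at 108 and 110 CPM in control and at 182, 165 and 294 CPM in OA-AP pancreas. It was called higher there (log2 fold change 0.98, SE 0.25; edgeR, adjusted p = 0.0217), and in adipose tissue its samples overlapped at -0.02 (95% interval -0.28 to 0.23). The difference between tissues was 1.02 (edgeR, adjusted p = 0.0247). Nfe2l1, a sister factor of Nrf2 that serves the proteasome, was higher in the pancreas at 1.30 (edgeR, adjusted p = 0.00136). Cul3, the scaffold of the ligase, was at 0.46 in the pancreas and 0.26 in adipose tissue, under the fold threshold in both (edgeR, adjusted p = 0.0272 and 0.0446). Of 6 relatives of the group, 5 of them tested in the pancreas, only Nfe2l3 was called in the pancreas (2.75; edgeR, adjusted p = 0.0124) and only Nfe2 in adipose tissue (1.11; edgeR, adjusted p = 0.0162), where it was at 0.696 to 2.27 CPM.

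Further targets of Nrf2 did not move as one. Of 32 genes for NADPH supply, thiol systems, heme and iron, detoxification and export, 27 were tested in the pancreas, where 2 were called higher and 4 lower, with a median log2 fold change of -0.17, beside 16.2% and 13.5% of all genes. In adipose tissue 29 were tested, 7 were called higher and 4 lower, with a median of -0.13, beside 12.4% and 12.7% of all genes.

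In the pancreas the genes called lower included 3 of detoxification, the glutathione transferases Gstp1 at -1.19 and Gstm1 at -0.91 and the epoxide hydrolase Ephx1 at -0.82, and the iron store Ftl1 at -0.97 (edgeR, adjusted p from 0.000624 to 0.0130). Gstp1, Gstm1 and Ftl1 have near-identical copies that could share reads, so their values are uncertain. The exporter Abcc3 was called higher at 1.73 (edgeR, adjusted p = 0.0114) and the membrane-bound transferase Mgst1 at 0.71 (edgeR, adjusted p = 0.0320). No gene of NADPH supply or of the thiol systems was called there.

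In adipose tissue the aldo-keto reductase Akr1b8 was called higher at 1.46 (edgeR, adjusted p = 0.000521) and biliverdin reductase Blvra, which takes the product of heme oxygenase on to bilirubin, at 1.23 (edgeR, adjusted p = 0.00275). Akr1b8 was at 1.15 in the pancreas, where it was not called (edgeR, adjusted p = 0.0545). Its tissue by condition difference was -0.29 (edgeR, adjusted p = 0.580). Blvra was at 24.1, 23.6 and 19.3 CPM in the controls and at 39.9, 55.8 and 61.2 CPM in OA-AP, with no overlap. Of the erythroid markers given above, 2 of 5 were also called higher in this tissue. G6pdx, which feeds the pentose phosphate pathway, was called higher at 0.93, and Slc3a2, the partner chain of the Slc7a11 transporter, at 0.82 (edgeR, adjusted p = 0.00587 and 0.00654). The list of 6 NADPH genes had 1 called higher and 2 lower in this tissue, with a median of -0.48. The 2 lower ones, named here after their values were seen, were the pentose phosphate enzyme Tkt at -1.15 and the isocitrate dehydrogenase Idh1 at -0.87 (edgeR, adjusted p = 0.00847 and 0.00839). Ephx1 was called lower at -1.15 and Gsta4 at -1.45 (edgeR, adjusted p = 0.00167 and 0.00351). Blvra was at -0.31 in the pancreas, and its tissue by condition difference was -1.51 (edgeR, adjusted p = 0.00986). In all, that difference, pancreas change minus adipose change, was called for 7 of 31 further targets tested, beside 21.3% of all genes. It was negative for 6 of the 7, where the calls over all genes numbered 1794 positive and 1842 negative. A negative difference need not be a rise in adipose tissue. Gstp1 and Ftl1, with uncertain values, were called lower in the pancreas and were at 0.16 and -0.13 in adipose tissue, not called. The rest of the 6 were called higher in adipose tissue.

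**Figure D5:**
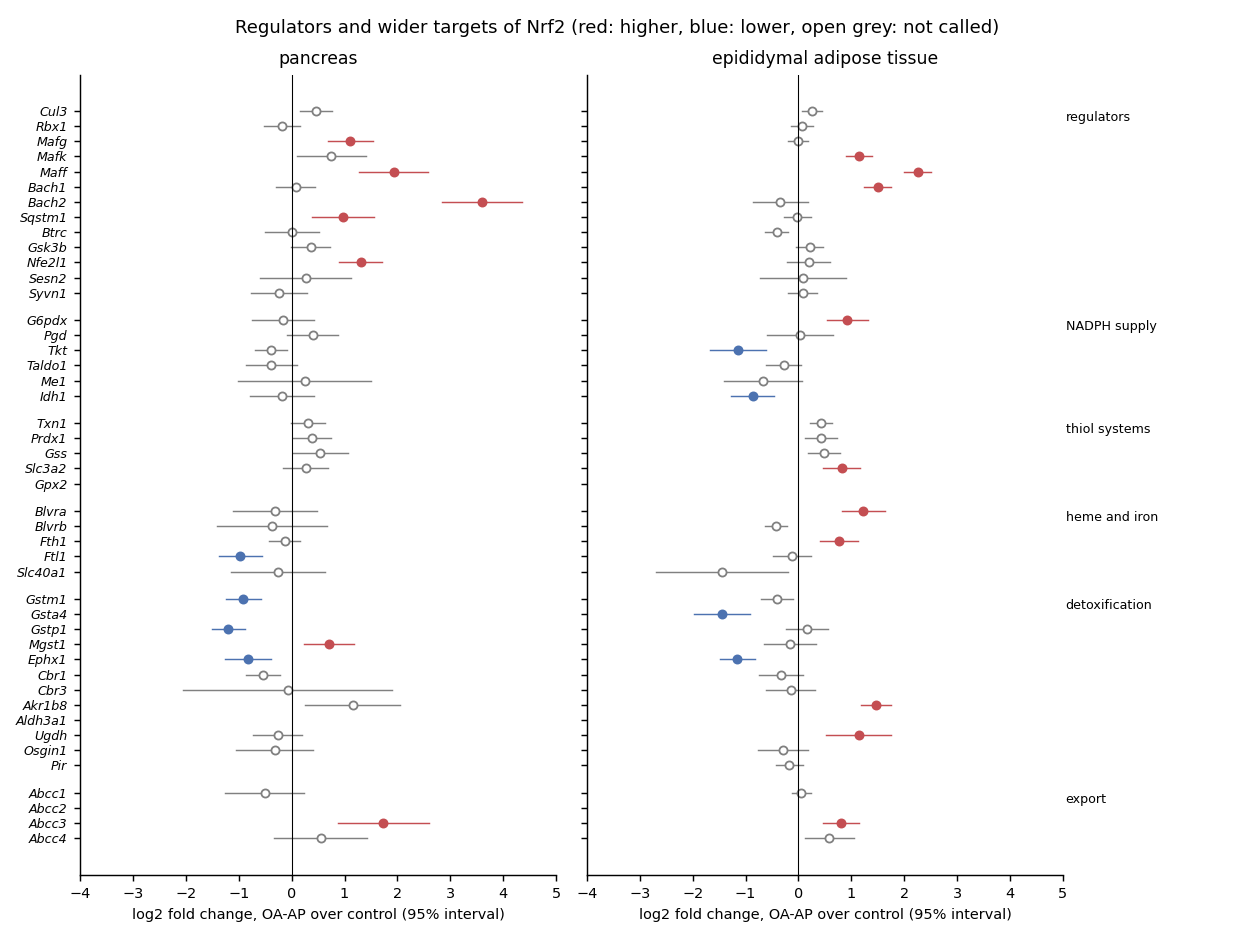
Log2 fold change, OA-AP over control, of 13 regulators and 32 further targets of Nrf2 in the pancreas (left) and adipose tissue (right), with 95% intervals; red passed both thresholds as higher, blue as lower, open grey did not, and genes without a symbol were too low to be tested. Ephx1 was lower and Maff and Abcc3 were higher in both tissues, and Bach1 was higher in adipose tissue and at 0.08 in the pancreas.

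The genes whose pattern was most like that of a member were sought among 11977 genes tested in both tissues, by the mean absolute difference of log2 CPM after centring each tissue and scaling to unit SD over the 11 samples. For Nfe2l2 these were Ube2z at 0.0960 SD, Mllt6 at 0.0963 SD and Cdk9 at 0.101 SD. For Hmox1 these were Hbegf at 0.143 SD, Litaf at 0.153 SD and Ssu72 at 0.157 SD. This is a description of 11 samples that share 2 conditions and their scaling, with no test.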

How the data were processed

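RNA was sequenced from 5 pancreas and 6 epididymal adipose samples. The authors trimmed reads with Trim Galore 0.6.6, checked quality with fastp 0.20.1, mapped to GRCm38 with STAR and counted with featureCounts 2.0.1, and the deposited values are whole-number counts per gene without normalization. The annotation release and the strand setting are not given in the sources used here. Counts were fitted per tissue with edgeR 4.0.16 in R 4.3.3 (filterByExpr, TMM, robust quasi-likelihood test, Benjamini-Hochberg adjustment over all genes tested), and a gene was called at an adjusted p under 0.05 and a fold of at least 1.5, the study's thresholds. A joint fit of all 11 libraries gave the tissue by condition term, called at an adjusted p under 0.05, and the contrast of control tissues. CPM used TMM-scaled totals. Alternatives were DESeq2 1.42.0, other scalings and filters, a replicate block and leaving out each library. The fits were tested on simulated data. Neighbouring genes came from GENCODE M21. No 2 replicates agreed within sampling noise (chi-square per degree of freedom at least 6.91). The members and lists were chosen with earlier results of these data known. All 10 members, 4 regulators per tissue with the smallest p among those called, 6 further targets likewise, the called relatives and Cul3, Bach1, Mafg and Sqstm1 were named.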

Additional observations from a re-analysis of the deposited data

Results flagged for a closer look

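The change differed between the tissues, by a test of the difference itself, for 2 of the 10 genes, beside 21.3% of the 17046 genes tested. For Nfe2l2 the log2 fold change was higher in the pancreas than in adipose tissue by 1.22 (SE 0.23, adjusted p = 0.00303 by edgeR's quasi-likelihood test), with 3 of 3 OA-AP samples above every control in both tissues. For Slc7a11 the difference was -5.18 (SE 1.32, adjusted p = 0.0195 by edgeR's quasi-likelihood test), with 3 of 3 OA-AP samples below both controls in the pancreas and 3 of 3 above every control in adipose tissue. The pancreatic value of Slc7a11 rested on 8, 0 and 64 counts in OA-AP.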

How the results depend on the processing

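In adipose tissue the same 5 genes were called with every alternative run, with 5 to 6 genes called when 1 library was left out. In the pancreas 4 genes were called by edgeR with TMM, 4 by DESeq2, 7 with library totals alone and 7 with the replicate block, and from 1 to 6 when 1 library was left out. Nfe2l2 was called in each of these, and the single call without either control was Nfe2l2. Srxn1 was not called with DESeq2's size factors (edgeR, adjusted p = 0.0550), nor Hmox1 without a filter on low counts (edgeR, adjusted p = 0.0854). For the tissue by condition term 2 genes were called, 4 with library totals alone, 4 by DESeq2 and from 1 to 4 when 1 library was left out, the 1 being without pancreas control 1 or adipose control 3 and the 4 without pancreas OA-AP 3. Between control tissues 6 genes were called, 10 with library totals alone and from 4 to 7 when 1 library was left out. Library totals also moved the share of calls higher in the pancreas from 49.3% to 94.1% for the tissue by condition term and from 46.9% to 7.43% for the control tissues. Calls over all genes went from 3834 to 6345 of 12884 in the pancreas with library totals alone. They went from 3636 to 6659 of 17046 for the tissue by condition term and from 9454 to 15370 between control tissues. The counts of the 10 genes are to be read beside these.

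The direction turned for values that were not called, and the cause was not tested. With library totals alone, Keap1 in adipose tissue was at -0.13, and the tissue by condition difference was 0.45 for Gclm and 0.26 for Txnrd1. Between control tissues Keap1 was then at -2.13 and Gclm, which had been called, at -1.47. Keap1 in adipose tissue was at -0.0096 without a filter and at -0.013 with 10 counts required in every sample. Leaving out 1 library gave ranges of -0.073 to 0.081 for Keap1, -0.18 to 0.046 for Gclc and -0.39 to 0.011 for Nqo1 in adipose tissue. For the tissue by condition difference it gave -2.56 to 6.92 for Nqo1, -0.19 to 0.87 for Hmox1 and -0.17 to 0.85 for Srxn1, and between control tissues -0.18 to 0.052 for Gclc.

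A control and an OA-AP sample of the same number received different treatments and so come from different mice. Their deviations from the group means correlated at -0.16 to 0.02 over genes within a tissue. Adipose control and OA-AP samples of different number correlated at -0.19 to 0.25. Centring on so few samples sets much of these values, so they cannot decide whether samples of the same number shared their handling. With the replicate block the pancreas had 6 genes called higher and Slc7a11 lower, adipose tissue 5 and the tissue by condition term 2, and between control tissues Gclc was at 0.20 and Txnrd1 at 0.010. In the pancreas this block leaves OA-AP replicate 3 without a control, so that library adds nothing to the difference.

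The pancreas has 2 controls, and a lone sample left in a group is assumed to vary like the others. Low counts limit Nqo1 and Slc7a11 in the pancreas, and the limit that a count of 0 allows covers counting error only.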
